A study of Sus scrofa with 20 samples.

Results

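The transcriptomes of testis and liver were compared over all 20 RNA-Seq libraries of the series, 10 from testis and 10 from liver, so every sample of the series entered the comparison. The tissues came from 10 boars of a Duroc × F2 cross, in which the F2 side came from Leicoma × German Landrace animals bred to Large White, and the boars averaged 116 days of age. 5 boars had a low and 5 a high level of androstenone in fat, the steroid that contributes to boar taint, and each boar gave both tissues, so each tissue holds 5 low and 5 high androstenone libraries. No boar was treated, and all samples share the breed cross, the freezing in liquid nitrogen after slaughter, and cDNA amplification before library preparation. Whether the same replicate number in testis and liver marks the same boar is not stated, and p-values measure the spread between these samples. Testis makes sperm in tubules where germ cells pass from spermatogonia through meiosis to spermatids with the help of Sertoli cells, and Leydig cells between the tubules make testosterone and, in boars, androstenone. Liver consists mostly of hepatocytes, which secrete plasma proteins, detoxify ammonia as urea, release glucose and break down steroids and foreign compounds. Both are bulk tissues, so fewer cells of a type and less RNA per cell cannot be told apart in what follows.

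A unit of the count files is a reference transcript, named by its RefSeq ID. Of 21755 IDs, 19065 had 10 or more counts summed over the 20 libraries and were tested, and 5893 of those carried a gene symbol. Liver libraries held 5796973 to 26783002 counts and testis libraries 6161397 to 15975386, and a floor of 3 counts was therefore worth 0.112 to 0.518 CPM (counts per 1000000) in the livers and 0.188 to 0.487 CPM in the testes. Below, CPM are scaled by the TMM factors of edgeR, and fold changes are testis over liver, so a negative value is higher in liver. An ID is said to be called, or to have risen or fallen between the tissues, at an adjusted p under 0.05 in edgeR's quasi-likelihood test together with a fold of at least 1.5. Levels are not divided by transcript length. Fold changes compare 1 ID between the tissues, while ranks, shares and sums over IDs may also depend on transcript length. The labelled tissues fitted their defining genes, since all 10 testis libraries held INSL3 of Leydig cells, at 569.6 to 2981 CPM (median 1263), against 0 to 4.15 CPM (median 0.0363) in liver, and all 10 liver libraries held ALB at 77689 to 226311 CPM (median 110083), against 0.506 to 31.3 CPM (median 5.09) in testis. 3 libraries stood apart within their tissue. Testis low 2 had the lowest sum of 26 sperm genes, 5114 CPM against 10986 to 15297 CPM in the other testis libraries. Liver low 1 had the highest sum of 25 sperm genes among livers, 32.4 CPM against 6.51 to 16.8 CPM. Testis high 1 had the highest sum of 8 abundant liver genes among testes, 68.0 CPM against 3.67 to 24.9 CPM. Leaving out liver low 1 moved the fold of 13 named genes by over 1.5 times, and these values, or the counts they rest on, are given with each gene, as are those that another single library moved as far.

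Most IDs differed between the tissues. Of the 19065 IDs tested, 14453 (75.8%) were called, 8291 of them (43.5% of those tested) higher in testis and 6162 (32.3%) higher in liver. The groups of libraries did not overlap for 5243 IDs (27.5%) in which every testis library lay above every liver library and for 2919 IDs (15.3%) in which every liver library lay above every testis library. Large differences were more often toward testis: 2845 called IDs were at least 16-fold higher there and 984 in liver, and at least 1024-fold differences numbered 414 and 145. The median log2 fold change of all IDs was 0.30, and the share of calls toward testis rested on the scaling, with 57.4% under TMM, 58.3% under RLE, 49.8% under upper quartile scaling and 76.0% with library totals only, under which the medians were 0.35, -0.05 and 1.28. The first principal component separated testis from liver and held 90.1% of the variance over 14400 IDs.

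**Figure D1:**
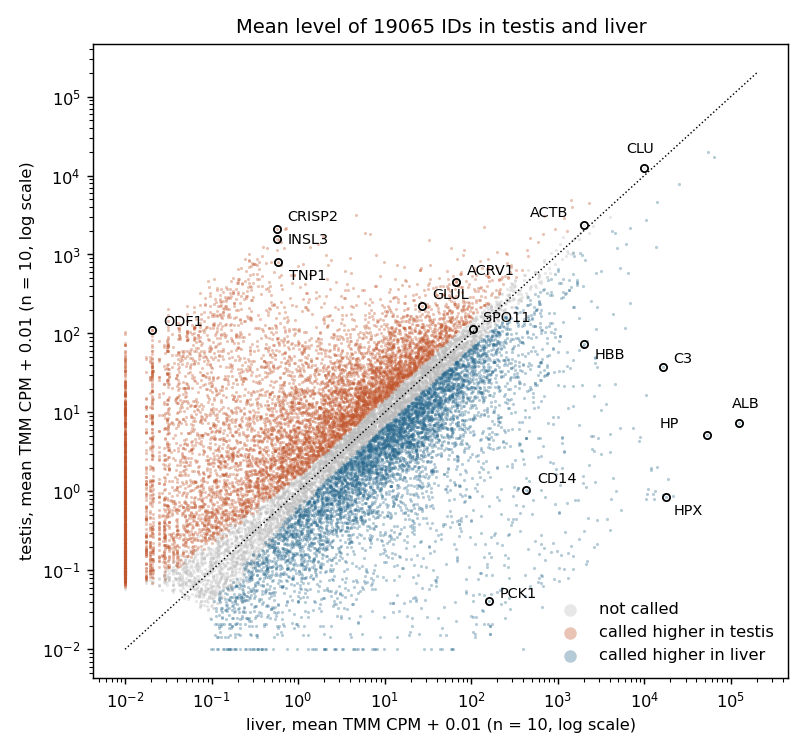
Mean TMM-scaled CPM plus 0.01 of each of 19065 IDs in liver (horizontal, log scale, n = 10) and testis (vertical, log scale, n = 10), with called IDs in color and labelled genes circled. ALB, HP and HPX lie at the right edge near the bottom, CRISP2, INSL3 and TNP1 at the top left, and CLU and ACTB near the dotted line of equal level.

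Liver libraries were held by far fewer transcripts than testis libraries. The 10 most abundant IDs of a library took 8.10 to 18.2% of its counts in testis (median 10.6, mean 11.6 ± 3.54, SD, n = 10) and 24.8 to 40.6% in liver (median 29.2, mean 30.7 ± 4.85). The 100 most abundant IDs took 28.5% ± 3.25 of the counts in testis and 59.1% ± 3.07 in liver. No testis library reached the lowest liver library in either share. A share of 50% of the counts was reached with 373 to 551 IDs in testis (median 504.5) and with 27 to 65 IDs in liver (median 47.5). The effective number of IDs, the exponential of the Shannon entropy of the shares, was 2569 ± 393 in testis and 502 ± 106 in liver. When every library was reduced by calculation to the lowest depth, 5796973 counts, 17664 to 17964 IDs were expected with at least 1 count in testis and 14382 to 15593 in liver. All 5 measures separated the tissues without overlap, with a two-sided permutation p = 2e-05 each, the smallest that 100000 resamples can give, and the same value after Benjamini-Hochberg adjustment over the 5 measures. Within the low and the high androstenone libraries the direction of each was the same, with exact p = 0.00794, the smallest that 5 against 5 samples allow. With the 10 most abundant IDs of each tissue removed, the difference in the share of the 10 most abundant IDs went from -19.1 to -9.24 percentage points.

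**Figure D2:**
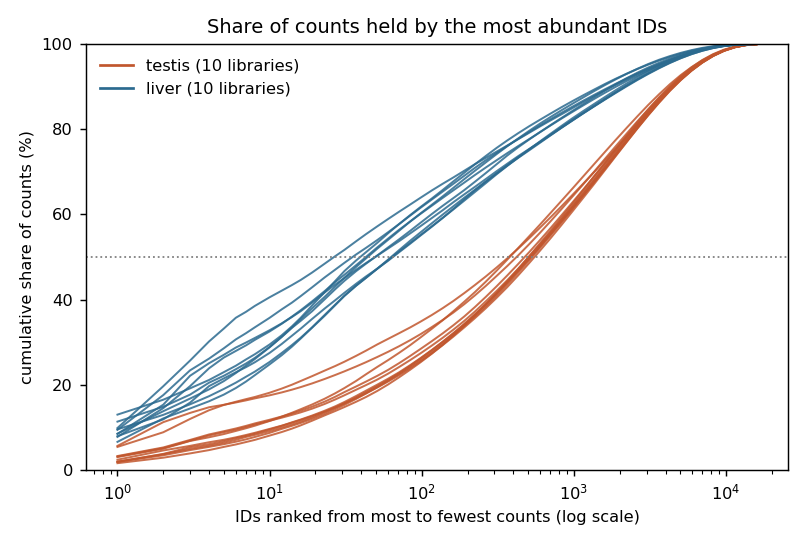
Cumulative share of counts (vertical, %) against the rank of IDs from most to fewest counts (horizontal, log scale), 1 line per library, 10 testis and 10 liver libraries. Every liver line crosses 50% at 27 to 65 IDs and every testis line at 373 to 551 IDs.

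The most abundant transcript of liver was ALB, the albumin of plasma, with 8.92% of the counts pooled over the 10 livers. HP, the haptoglobin that binds free hemoglobin, held 3.76%, HPX, the hemopexin that binds heme, 1.31%, and C3, the central complement component, 1.17%. The other symbols among the 10 highest of liver were APOA4, APOC3, RBP4, AMBP, APOH and FTH1, with 0.782% for AMBP and 0.9604% for APOA4, and FTH1 alone of the 10 is not a secreted plasma protein but the iron store ferritin. In testis the highest symbol was CLU, a chaperone that Sertoli cells secrete, with 1.702% of counts, followed by RPLP0 of the ribosome with 0.687%, UBB (ubiquitin) with 0.6400% and HSP90AA1 (a heat shock chaperone) with 0.564%. LOC100521680, EEF1A1, FTH1, TMSB10, ACTB and RPS20 completed the 10, and the highest member of the sperm lists was CRISP2 with 0.299%. These are shares of the counts pooled over the 10 libraries of a tissue, so deeper libraries weigh more, and they are not divided by transcript length.

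The lists of both tissues had 23 IDs in common among their 100 most abundant. Of the 10 most abundant IDs, 5 in testis and 6 in liver carried no symbol. Among the unnamed ones, XR_115867.1 held 2.79% of testis and 3.50% of liver counts, at 9432 to 41686 CPM (median 14678) and 14061 to 128528 CPM (median 44497), with overlapping groups (log2 fold change -1.45, SE 0.42, adjusted p = 0.00274). It was not called with library totals, at -0.51 (adjusted p = 0.247). NR_002170.3 was at 7373 to 40893 CPM (median 13658) in testis and 10324 to 127520.3 CPM (median 43825) in liver (log2 fold change -1.92, SE 0.45, adjusted p = 0.000445). All 827 IDs whose accession marks a non-coding RNA (NR_ or XR_) together held 5.16 to 17.2% of testis counts (median 8.29) and 3.53 to 30.5% of liver counts (median 11.9), so the livers ranged more widely, and their part in the spread between livers was not tested. IDs with a symbol held 41.9% ± 2.20 of testis counts and 51.0% ± 6.68 of liver counts, which leaves a large share of each library outside the gene lists that follow.

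By detection at a limit set on library totals, testis held more transcripts than liver. The TMM factors were 1.27 to 1.45 in testis and 0.515 to 0.876 in liver, so on the TMM scale this limit was stricter in liver. The effect of that on the numbers of this paragraph was not tested. 12559 IDs had at least 1 CPM of the library total in all 10 testis libraries and 9138 in all 10 liver libraries, and 8191 in both. An ID was taken as tissue-restricted where it had at least 1 CPM in all 10 libraries of a tissue and fewer than 3 counts in every library of the other. 886 IDs were testis-restricted (174 with a symbol) and held 2.68% of pooled testis counts, and 79 were liver-restricted (26 with a symbol) and held 0.541% of pooled liver counts. The numbers move with the limit of 3 counts: the highest count in any liver library was 2 for 262 of the 886 and 3 for 192 IDs just outside, and the highest count in any testis library was 2 for 27 of the 79 and 3 for 35 IDs just outside. With no count allowed in the other tissue, 284 and 15 IDs were left. Without liver low 1, 1059 IDs were testis-restricted, and without testis high 1, 97 were liver-restricted.

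The testis-restricted symbols with the highest means were CLDN11 (tight junctions of Sertoli cells) with 137 CPM, PPP1R42 with 136 CPM, KIF2B with 134 CPM, IRGC with 121 CPM, ZAN (zonadhesin of the acrosome) with 119 CPM and ODF1 with 111 CPM. Among the lists below, 4 of 11 acrosome genes, 5 of 14 flagellum genes, 3 of 9 meiosis genes, 2 of 9 spermatogonia genes and 2 of 11 Sertoli genes were testis-restricted, and 0 of 13 Leydig genes, against 4.65% of all IDs. Genes as abundant as TNP1, CRISP2 and INSL3 were outside the class because single liver libraries held 3 or more of their counts. The liver-restricted symbols with the highest means were FETUB (the plasma protein fetuin B) with 672 CPM, CYP4A21 (a fatty acid hydroxylase of the cytochrome P450 family) with 421 CPM, NNMT (nicotinamide methylation) with 221 CPM, TM4SF4 with 166 CPM, PON3 (a paraoxonase) with 164 CPM and PCK1 with 161 CPM. MBL1 (a mannose-binding lectin), FOXA2 and INHBE (an inhibin subunit) had no count in any testis library, with liver means of 43.4, 34.6 and 9.90 CPM. ALB, HP and C3 were not liver-restricted: their counts in testis were low but present, with medians of 5.09, 4.34 and 39.2 CPM.

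The lists with the highest medians toward testis were those of sperm genes. TNP1, a transition protein that replaces histones in the spermatid nucleus, was the only 1 of 7 protamine and transition protein symbols with an ID here. It ranged over 345 to 1486 CPM (median 688) in testis and 0 to 3.19 CPM (median 0.148) in liver, so every testis library lay far above every liver library (log2 fold change 10.51, SE 0.70, adjusted p = 2.63e-13). Of 27 acrosome and zona binding symbols, 11 had an ID and all 11 were called higher in testis, against 43.5% of all IDs, with a median log2 fold change of 9.43. By DESeq2 10 were called and 1 was not. In 10 of the 11 no library overlapped, against 27.5% of all IDs. CRISP2, which sits in the acrosome and the outer fibres of the tail, ranged over 692 to 3036 CPM (median 2196) in testis and 0 to 4.15 CPM (median 0.105) in liver (log2 fold change 11.90, SE 0.76, adjusted p = 1.11e-13). ZPBP2, which binds the zona pellucida of the egg, ranged over 265 to 587 CPM (median 459.7) and 0 to 1.04 CPM (median 0.0736), log2 fold change 11.02, SE 0.46, adjusted p = 1.39e-17. Both were at or near 0 in liver. Without liver low 1, which held 30 of the 44 liver counts of TNP1 and 39 of the 47 of CRISP2, the log2 fold changes were 11.89 and 14.07. ACRV1, an acrosomal vesicle protein, was the exception of the list. Its 187 to 599 CPM (median 439) in testis overlapped with 4.11 to 211 CPM (median 43.4) in liver (log2 fold change 2.81, SE 0.61, adjusted p = 0.000161). Its liver values lay at 76.9 CPM or more in the 5 libraries with the largest totals and at 9.87 CPM or less in the other 5.

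All 14 flagellum genes with an ID, of 44 symbols, were higher in testis, against 43.5% of all IDs. None overlapped, as held for 27.5% of all IDs, and their median log2 fold change was 11.22. ODF1, an outer dense fibre protein, ranged over 34.2 to 202 CPM (median 100.0) in testis and had a single count in all livers, a ratio of 9147 with a 95% counting interval of 1642 to 361270.3. TEKT2, a tektin of the axoneme, ranged over 512 to 1463 CPM (median 1011) in testis and 0 to 1.597 CPM (median 0) in liver (log2 fold change 11.94, SE 0.62, adjusted p = 1.11e-15). CAPZA3, the actin capping subunit of sperm, ranged over 364 to 1110.4 CPM (median 888) and 0 to 2.66 CPM (median 0), log2 fold change 11.38, SE 0.69, adjusted p = 3.52e-14, and SMCP of the mitochondrial sheath over 88.7 to 316 CPM (median 269.9) and 0 to 1.17 CPM (median 0), log2 fold change 10.68, SE 0.55, adjusted p = 1.34e-15. SPAG6 of the axoneme central pair ranged over 52.9 to 114 CPM (median 92.1) in testis with 2 counts in all livers, a ratio of 3772 with a 95% counting interval of 1044 to 31148. Liver low 1 held 25 of the 28 liver counts of CAPZA3, 11 of the 12 of SMCP and 15 of the 20 of TEKT2, and without it their log2 fold changes were 14.04, 13.35 and 13.62. It also held the only liver counts of ODF1 and SPAG6. Testis low 2 was lowest in 25 of the 26 sperm genes of these 3 lists. Without it all 26 were still called, and the log2 fold changes were 10.64 for TNP1 and 12.08 for CRISP2. With liver low 1 and testis high 1 removed instead, they were 11.72 and 14.09.

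Among genes of meiosis, 8 of 9 with an ID, of 33 symbols, were higher in testis, against 43.5% of all IDs, with a median log2 fold change of 7.14. MAEL and PIWIL1, which silence transposons through small RNAs in meiotic cells, ranged over 45.8 to 109 CPM (median 80.5) and 55.9 to 89.05 CPM (median 69.4) in testis, each with 1 count in all livers, in liver low 3 for MAEL and in liver high 2 for PIWIL1. The ratios were 6665 (95% counting interval 1196 to 263256) and 5821 (1045 to 229930.4). SYCP3, a structural protein of the synaptonemal complex, ranged over 288 to 473 CPM (median 366) in testis and was also counted in every liver, at 5.15 to 29.8 CPM (median 14.5), log2 fold change 4.69, SE 0.31, adjusted p = 2.00e-13. SPO11, which cuts DNA to start meiotic recombination, was the exception. Its 85.4 to 193 CPM (median 106) in testis and 39.7 to 163 CPM (median 107) in liver overlapped and did not pass the test (log2 fold change 0.11, SE 0.23, adjusted p = 0.669), and the sign turned to -0.26 under upper quartile scaling and to -0.018 without testis low 5. With library totals it was called higher in testis, at 1.03 (adjusted p = 0.000594), as were then all 9 genes of the list.

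Of 20 symbols of spermatogonia and early germ cells, 9 were tested, 7 higher in testis and 2 higher in liver, against 43.5% and 32.3% of all IDs. Their median log2 fold change was 3.48, or 1.45 with genes at 0 in liver set to their bound. By DESeq2 6 were higher in testis, 2 were higher in liver and 1 was not called, with a median of 2.10. DMRT1, a sex-determining factor of spermatogonia and Sertoli cells, ranged over 32.5 to 68.1 CPM (median 40.7) in testis with 1 count in all livers, from liver low 1, a ratio of 3519 with a 95% counting interval of 632 to 138986. UCHL1, a ubiquitin hydrolase of spermatogonia, ranged over 21.9 to 65.5 CPM (median 34.7) in testis and 0.189 to 1.32 CPM (median 0.578) in liver (log2 fold change 5.86, SE 0.25, adjusted p = 1.88e-17). GFRA1 and ID4, markers of the stem cells among spermatogonia, were the 2 higher in liver, but on 15 and 11 counts in all testes and 44 and 34 in all livers, with overlap between the groups (log2 fold change -2.24, adjusted p = 0.000613, and -2.35, adjusted p = 0.00254). With library totals ID4 was not called, at -1.45 (adjusted p = 0.0558). Their highest library values were 1.28 and 1.57 CPM, both in liver.

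The symbols with the largest fold changes toward testis outside these lists were CCER1, TRIM29, ACTL7B, ACTRT2 and FAM183A. CCER1 ranged over 32.2 to 87.2 CPM (median 57.8) and TRIM29 over 22.1 to 71.8 CPM (median 48.3) in testis, and neither had a count in liver, so they were at least 1619-fold and at least 1311-fold higher in testis against 3 counts over the 10 livers. ACTL7B and ACTRT2, actin-like proteins of spermatids, ranged over 222 to 733 CPM (median 469.6) and 433 to 1369.6 CPM (median 859.5) in testis, with liver maxima of 0.745 and 1.28 CPM (log2 fold change 12.08, SE 0.53, adjusted p = 3.60e-17 for ACTL7B and 11.95, 0.63 and 2.08e-15 for ACTRT2). Without liver low 1, which held 7 of the 8 and 12 of the 17 liver counts, they were 14.24 and 13.42.

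Lists of somatic testis cells held members that differed in either direction. Of 23 Sertoli symbols, 11 had an ID, and 7 were higher in testis, 1 was higher in liver and 3 were not called, against 43.5% and 32.3% of all IDs higher in testis and in liver, with a median log2 fold change of 2.18. With library totals 10 were higher in testis and 1 in liver. CLDN11, a claudin of the blood-testis barrier, ranged over 43.4 to 199.6 CPM (median 155) in testis with 2 counts in all livers, 1 of them in liver high 2 and 1 in liver low 1, a ratio of 5651 with a 95% counting interval of 1564 to 46665. WT1, a transcription factor of Sertoli cells, ranged over 2.68 to 6.33 CPM (median 3.49) in testis and 0 to 0.149 CPM (median 0) in liver (log2 fold change 5.83, SE 0.38, adjusted p = 1.72e-13). AMH, the hormone that immature Sertoli cells release, was low in both tissues and overlapped, at 3.697 to 10.2 CPM (median 6.203) and 1.64 to 9.898 CPM (median 4.35), log2 fold change 0.45, SE 0.25, adjusted p = 0.104, and it was called without liver high 5, at 0.59, and with library totals, at 1.40. CLU, with the largest share of testis counts among IDs with a symbol, overlapped between the tissues, at 4014 to 21775 CPM (median 12765) and 2352 to 23237 CPM (median 7720.4), log2 fold change 0.30, SE 0.34, adjusted p = 0.414. Its sign turned to -0.037 under upper quartile scaling, and it was called higher in testis without liver high 3, at 0.66, and with library totals, at 1.38 (adjusted p = 0.00013).

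Of 24 symbols of Leydig cells and steroid synthesis, 13 had an ID. 7 were higher in testis, 1 was higher in liver and 5 were not called, with a median log2 fold change of 3.20, or 2.51 with bounds. The 7 of 13 lie near the 43.5% of all IDs that were higher in testis. Under upper quartile scaling the split was 7, 4 and 2. INSL3, the insulin-like hormone of Leydig cells, had the largest fitted fold of the list (log2 fold change 11.47, SE 0.78, adjusted p = 3.85e-13). CYP17A1, which makes the androgen precursors and the 16-androstenes, ranged over 92.7 to 602 CPM (median 257) in testis and 0 to 0.532 CPM (median 0) in liver (log2 fold change 11.003, SE 0.55, adjusted p = 6.51e-16), and LHCGR, the receptor for luteinizing hormone, over 3.78 to 10.9 CPM (median 7.07) and 0 to 0.224 CPM (median 0), log2 fold change 7.01, SE 0.44, adjusted p = 8.08e-14. No liver library reached the lowest testis library in any of the 3. Without liver low 1, which held 39 of the 49 liver counts of INSL3 and 5 of the 10 of CYP17A1, the log2 fold changes were 13.35 and 11.82, and without liver low 2, with 3 of the 4 liver counts of LHCGR, that of LHCGR was 8.23. NR5A1, the steroidogenic factor, was low in testis at 0.486 to 2.59 CPM (median 1.33) and had no count in liver, which makes it at least 36.6-fold higher in testis. The 5 that were not called were FDX1, TSPO, SCARB1, CYB5A and HSD3B1. HSD3B1 ranged over 0.905 to 6.31 CPM (median 3.203) in testis and 0.833 to 23.7 CPM (median 3.72) in liver (log2 fold change -0.75, SE 0.40, adjusted p = 0.0865), but it was called higher in liver without testis high 2, at -1.07, or without liver high 2, at -0.88, and under upper quartile scaling, at -1.08, and with library totals its sign turned to 0.29. SULT2A1, which sulfates steroids, was the 1 higher in liver, at 386 to 1755 CPM (median 779) against 16.1 to 139 CPM (median 57.9), without overlap (log2 fold change -3.87, SE 0.37, adjusted p = 3.59e-10). Of 7 smooth muscle symbols of peritubular cells, 3 had an ID. CNN1 and ACTA2 were called higher in testis, 2 of 3, against 43.5% of all IDs higher in testis and 75.8% called in either direction. Under upper quartile scaling 0 were called. ACTA2, smooth muscle actin, ranged over 49.7 to 529 CPM (median 207) in testis and 8.98 to 233 CPM (median 81.8) in liver (log2 fold change 1.21, SE 0.44, adjusted p = 0.0148). Without testis low 2, 1 of the 3 was called.

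**Figure D3:**
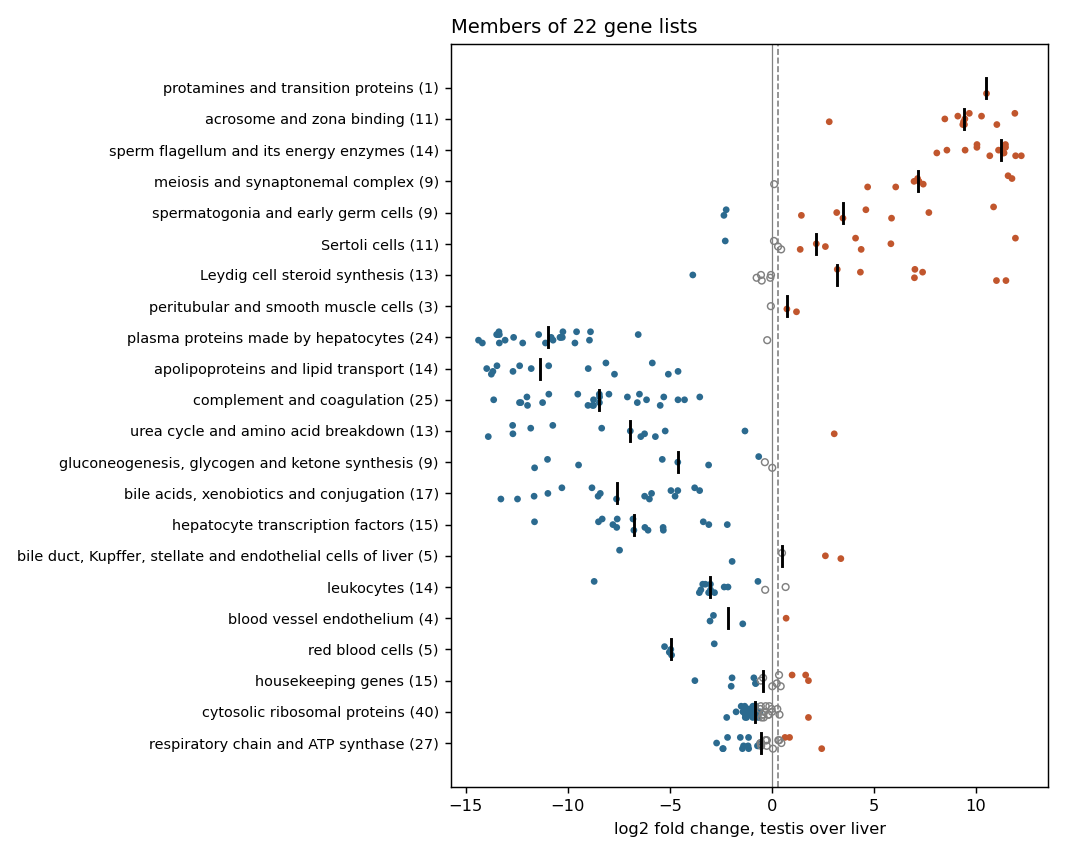
Log2 fold change, testis over liver, of each tested member of 22 gene lists, with the number of members in brackets; filled points are called, open points are not, the black bar is the list's median and the dashed line the median of all IDs, 0.30. Sperm genes lie at 8.08 or more apart from ACRV1 at 2.81, and hepatocyte genes lie left of 0 apart from GLUL at 3.05 and KHK at 0.02.

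Hepatocyte genes stood opposite to the sperm genes. Of 41 symbols for plasma proteins, 24 had an ID. 23 were higher in liver, against 32.3% of all IDs, and 1 was not called, with a median log2 fold change of -10.95. In 22 of the 24 no library overlapped, against 15.3% of all IDs. ALB, with the values above, had a log2 fold change of -14.18 (SE 0.83, adjusted p = 1.80e-14). HPX ranged over 7728 to 37622 CPM (median 15137) in liver and 0 to 3.25 CPM (median 0.636) in testis (log2 fold change -14.37, SE 0.77, adjusted p = 2.63e-15), and HP over 22459 to 102375 CPM (median 48951) and 1.27 to 16.4 CPM (median 4.34), log2 fold change -13.35, SE 0.64, adjusted p = 2.41e-16. No testis library came near the lowest liver library in any of the 3. RBP4, which carries retinol, ranged over 4756 to 19028 CPM (median 12397) in liver and 0.973 to 3.19 CPM (median 1.599) in testis (log2 fold change -12.65, SE 0.46, adjusted p = 1.20e-18). AMBP, the precursor of a plasma protease inhibitor, ranged over 6666 to 17176 CPM (median 10703) and 0.127 to 4.098 CPM (median 0.838), log2 fold change -13.37, SE 0.58, adjusted p = 3.29e-17. FETUB, fetuin B, ranged over 239 to 1858 CPM (median 550.4), and its 7 counts in all testes gave at most 0.195 CPM (log2 fold change -13.48, SE 0.59, adjusted p = 3.87e-17). The groups lay far apart in all of them. Testis high 1 held the highest testis value of all 8 abundant liver symbols. With testis high 1 and liver low 1 removed, the log2 fold changes were -14.72 for ALB and -14.84 for HPX. IGF1, the growth factor released by liver, was the member not called. Its 7.83 to 41.5 CPM (median 12.3) in liver and 6.54 to 24.3 CPM (median 12.3) in testis overlapped (log2 fold change -0.23, SE 0.28, adjusted p = 0.46), and without liver high 4 its log2 fold change was 0.020. With library totals it was called higher in testis, at 0.72. HAMP, the iron hormone hepcidin, was called but uneven, with 0 to 119.6 CPM (median 0.639) in liver against 3 counts in all testes, a ratio of 880.0 with a 95% counting interval of 301 to 4267. Liver high 4 held 533 of its 911 liver counts, and the fitted log2 fold change of -8.89 became -7.59 without that library and -9.96 without testis low 4, which held 2 of the 3 testis counts.

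All 14 apolipoprotein and lipid transport genes with an ID, of 19 symbols, were higher in liver without overlap, against 15.3% of all IDs, and their median log2 fold change was -11.36. APOA4 of chylomicrons ranged over 2362 to 36910.4 CPM (median 11224) in liver and 0 to 2.98 CPM (median 0.5095) in testis (log2 fold change -13.97, SE 0.79, adjusted p = 8.27e-15), and APOC3, which slows the removal of triglycerides, over 7805 to 19031 CPM (median 12293) and 0.0973 to 3.300 CPM (median 0.636), log2 fold change -13.74, SE 0.57, adjusted p = 1.21e-17. APOH, which binds phospholipids, ranged over 5587 to 18017 CPM (median 10866) and 0 to 3.46 CPM (median 0.667), log2 fold change -13.47, SE 0.70, adjusted p = 1.22e-15. These 3 were close to 0 in testis. APOA1, the main protein of HDL, differed less, since testis held 19.9 to 112 CPM (median 34.97) of it against 555 to 2689.9 CPM (median 1450.3) in liver (log2 fold change -5.07, SE 0.36, adjusted p = 7.81e-13). MTTP, which loads lipid onto apolipoprotein B, had the smallest difference of the list, a log2 fold change of -4.60. All 25 complement and coagulation genes with an ID, of 38 symbols, were higher in liver without overlap, against the same 15.3%, with a median log2 fold change of -8.45. C8A, a part of the membrane attack complex, ranged over 896 to 2264 CPM (median 1435) in liver and 0 to 0.319 CPM (median 0.0749) in testis (log2 fold change -13.63, SE 0.43, adjusted p = 2.23e-19), and C3 over 8476 to 23067 CPM (median 16676) and 19.2 to 54.7 CPM (median 39.2), log2 fold change -8.74, SE 0.34, adjusted p = 4.07e-18. C4A had the smallest difference, with 65.7 to 156 CPM (median 86.6) in testis (log2 fold change -3.53, SE 0.25, adjusted p = 7.93e-13).

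Of 30 symbols of the urea cycle and amino acid breakdown, 13 had an ID, 12 higher in liver and 1 higher in testis, against 32.3% and 43.5% of all IDs. Their median log2 fold change was -6.94. OTC, which forms citrulline in the urea cycle, ranged over 445 to 1068 CPM (median 613) in liver with 5 counts in all testes (log2 fold change -13.89, SE 0.45, adjusted p = 2.99e-19). Without testis high 1, which held 3 of these counts, its log2 fold change was -14.62. ARG1, which releases urea, ranged over 428 to 2084 CPM (median 1111) and 0 to 0.328 CPM (median 0.128), log2 fold change -12.69, SE 0.47, adjusted p = 1.52e-18, and TAT, which breaks down tyrosine, over 239 to 1218 CPM (median 540.1) and 0 to 0.219 CPM (median 0.175), log2 fold change -11.81, SE 0.39, adjusted p = 3.67e-19. GLUL, glutamine synthetase, was the 1 higher in testis, at 81.96 to 434 CPM (median 215) against 6.51 to 48.00 CPM (median 27.7), without overlap (log2 fold change 3.05, SE 0.33, adjusted p = 3.33e-09). Of 22 symbols of glucose release, glycogen and ketone synthesis, 9 had an ID. 7 were higher in liver, against 32.3% of all IDs, and 2 were not called, with a median log2 fold change of -4.61. PCK1, the entry step of gluconeogenesis, ranged over 65.7 to 260.1 CPM (median 160.2) in liver with 6 counts in all testes (log2 fold change -11.62, SE 0.50, adjusted p = 3.12e-17). PYGL, the glycogen phosphorylase named for liver, had a small difference, with 48.5 to 146 CPM (median 77.8) in liver and 28.1 to 81.8 CPM (median 47.5) in testis (log2 fold change -0.65, SE 0.20, adjusted p = 0.00411), and fell below the fold threshold without testis low 5, liver low 5 or liver high 3, at -0.57, -0.55 and -0.55. With library totals its sign turned to 0.38. KHK, which phosphorylates fructose, was not called, with a log2 fold change of 0.02.

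Of 38 symbols for bile acids, foreign compounds and conjugation, 17 had an ID. All 17 were higher in liver and 15 were without overlap, against 32.3% and 15.3% of all IDs, with a median log2 fold change of -7.61. CYP2C33, a drug-metabolizing cytochrome P450, ranged over 1694 to 12513 CPM (median 3898) in liver and 0.107 to 2.13 CPM (median 0.393) in testis (log2 fold change -13.28, SE 0.64, adjusted p = 2.97e-16), and CYP2E1, which also breaks down skatole, over 622 to 7444 CPM (median 4160.2) and 0.534 to 5.08 CPM (median 3.17), log2 fold change -10.29, SE 0.51, adjusted p = 5.07e-16. CYP7A1, the rate-limiting enzyme of bile acid synthesis, ranged over 0.2901 to 102 CPM (median 3.64) in liver and 0 to 0.389 CPM (median 0.228) in testis (log2 fold change -6.000, SE 0.94, adjusted p = 2.18e-06), so its lowest liver fell within the testis range. Without liver low 2 its log2 fold change was -5.22, and without liver high 4 -5.37. Counts of the P450 enzymes may be shared with near-identical family members, since how reads that fit several references were counted is not stated. All 15 hepatocyte transcription factors with an ID, of 18 symbols, were higher in liver without overlap, against 15.3% of all IDs, with a median log2 fold change of -6.76. HNF4A, a nuclear receptor at the head of the hepatocyte program, ranged over 17.2 to 33.2 CPM (median 25.7) in liver and 0 to 0.905 CPM (median 0.562) in testis (log2 fold change -5.32, SE 0.27, adjusted p = 6.04e-16). FOXA2, a forkhead factor, ranged over 8.94 to 71.4 CPM (median 29.6) in liver with no count in testis, and was at least 1704-fold lower in testis. PROX1, a homeobox factor that vessels also use, had the smallest difference, at 16.9 to 39.4 CPM (median 31.4) and 3.21 to 8.12 CPM (median 6.67), log2 fold change -2.18, SE 0.19, adjusted p = 4.00e-11. Together, the lists of plasma proteins, of apolipoproteins and lipid transport, and of complement and coagulation held 63 tested IDs. These 63 summed to 198325 to 526520 CPM in liver (median 328038) and to 432 to 592 CPM in testis (median 500.3). The other hepatocyte lists, with those of this paragraph, are not in that sum.

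Markers of other cells also moved with tissue. Of 19 leukocyte symbols, 14 had an ID. 12 were higher in liver, against 32.3% of all IDs, and 2 were not called, with a median log2 fold change of -3.01. PTPRC, the CD45 antigen of all leukocytes, ranged over 27.8 to 83.5 CPM (median 39.9) in liver and 1.78 to 6.18 CPM (median 3.27) in testis (log2 fold change -3.55, SE 0.19, adjusted p = 3.52e-15), and CD14, a lipopolysaccharide receptor of monocytes that hepatocytes also make, over 312 to 541 CPM (median 441) and 0.292 to 2.02 CPM (median 1.002), log2 fold change -8.71, SE 0.30, adjusted p = 4.85e-19. The 14 IDs summed to 408 to 718 CPM in liver and to 11.2 to 30.4 CPM in testis. All 5 red blood cell genes with an ID, of 9 symbols, were higher in liver, against the same 32.3%, with a median log2 fold change of -4.95. HBB, a hemoglobin chain, ranged over 476 to 3487 CPM (median 2239) in liver and 11.7 to 245 CPM (median 38.2) in testis (log2 fold change -5.03, SE 0.56, adjusted p = 7.18e-09). The red cell list summed to 687 to 5915 CPM in liver and to 20.1 to 425 CPM in testis, and the part of blood cells in the leukocyte differences was not tested.

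Of 9 endothelial symbols, 4 had an ID, 3 higher in liver and 1 higher in testis, against 32.3% and 43.5% of all IDs. KDR, the receptor for vascular endothelial growth factor, ranged over 30.7 to 85.99 CPM (median 48.8) in liver and 3.79 to 9.02 CPM (median 6.15) in testis (log2 fold change -3.03, SE 0.21, adjusted p = 3.81e-13), PECAM1 over 43.1 to 91.9 CPM (median 55.8) and 9.34 to 35.2 CPM (median 22.1), log2 fold change -1.43, SE 0.21, adjusted p = 9.11e-07, ENG was also higher in liver and EDN1 higher in testis, with a log2 fold change of 0.70. Under upper quartile scaling 0 of the 4 were higher in testis, and with library totals PECAM1 lay under the fold threshold, at -0.45. Of 18 symbols for bile duct, Kupffer, stellate and sinusoidal cells, 5 had an ID. CLEC4G, a lectin of liver sinusoids, ranged over 21.8 to 93.1 CPM (median 36.3) in liver and 0 to 0.575 CPM (median 0.162) in testis (log2 fold change -7.46, SE 0.39, adjusted p = 1.64e-15), and KRT19, a bile duct keratin, over 3.54 to 18.9 CPM (median 10.1) and 0.357 to 6.68 CPM (median 2.47), log2 fold change -1.95, SE 0.37, adjusted p = 3.09e-05. EPCAM, a bile duct marker that germ cells also carry, was higher in testis, at 11.4 to 67.03 CPM (median 24.7) against 1.91 to 6.06 CPM (median 2.62), log2 fold change 3.38, SE 0.31, adjusted p = 1.51e-10, as was SOX9, which Sertoli cells use too, at 2.62.

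**Figure D4:**
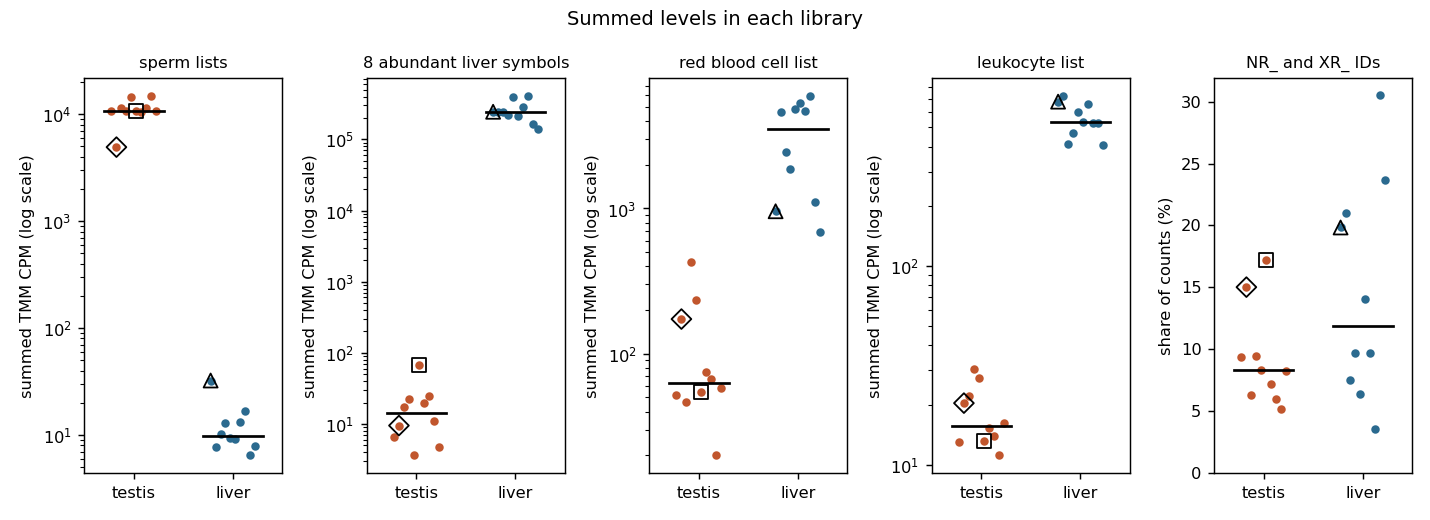
Sums per library, with testis and liver side by side, of 25 sperm genes, 8 abundant liver genes, 5 red blood cell genes and 14 leukocyte genes (TMM-scaled CPM, log scale) and of NR_ and XR_ IDs (share of counts, %); bars are medians, and the diamond, square and triangle mark testis low 2, testis high 1 and liver low 1. The sperm sum of testis low 2, 4927 CPM, is the lowest of testis, and the sperm sum of liver low 1, 32.4 CPM, the highest of liver.

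Genes that every cell uses were detected in both tissues, and the direction of their lists rested on the scaling. All 40 ribosomal protein genes with an ID were detected in both tissues, with 1 called higher in testis, 24 higher in liver and 15 not called, against 43.5% and 32.3% of all IDs higher in testis and in liver, and a median log2 fold change of -0.81, whereas with library totals 11 were higher in testis and 2 in liver, with a median log2 fold change of 0.17. Relative to the median of all IDs the ribosomal median was -1.12 under TMM, -1.13 under upper quartile scaling and -1.10 with library totals. RPLP0, of the large subunit stalk, was the 1 called higher in testis, at 3813 to 6838 CPM (median 4585) against 361 to 2622 CPM (median 1261), log2 fold change 1.79, SE 0.28, adjusted p = 2.67e-06. RPL10 had the largest difference toward liver, a log2 fold change of -2.21. Of 27 respiratory chain and ATP synthase genes, 3 were higher in testis, 13 higher in liver and 11 not called, against the same 43.5% and 32.3% of all IDs. Their median log2 fold change was -0.55, and with library totals the split was 11, 4 and 12 with a median log2 fold change of 0.43. COX7A2, a cytochrome oxidase subunit, was the largest toward testis, at 828 to 1473 CPM (median 1035) against 94.03 to 273 CPM (median 204), log2 fold change 2.44, SE 0.21, adjusted p = 3.14e-11, and NDUFA4 the largest toward liver, with a log2 fold change of -2.71. Of 15 housekeeping genes, 3 were higher in testis, 6 higher in liver and 6 not called, with a median log2 fold change of -0.43, with the 6 of 15 near the 32.3% of all IDs higher in liver, and with library totals the split was 8, 3 and 4 with a median log2 fold change of 0.62.

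ACTB, the cytoskeletal actin often used as a reference, ranged over 997 to 4534 CPM (median 2347) in testis and 735 to 5305 CPM (median 1726) in liver and was not called (log2 fold change 0.24, SE 0.31, adjusted p = 0.479), with a sign that turned to -0.11 under upper quartile scaling, while with library totals it was called higher in testis, at 1.27 (adjusted p = 0.000117). EEF1A1, an elongation factor, ranged over 1905 to 4189.8 CPM (median 3057) and 1436 to 8493 CPM (median 2764), log2 fold change -0.43, SE 0.29, adjusted p = 0.17, and it was called higher in liver under upper quartile scaling, at -0.79, and higher in testis with library totals, at 0.62. YWHAZ, another frequent reference gene, was higher in testis without overlap, at 324 to 463 CPM (median 382) against 80.7 to 183 CPM (median 112), log2 fold change 1.65, SE 0.17, adjusted p = 2.08e-09, and B2M, the light chain of MHC class I, higher in liver, at 199 to 632 CPM (median 391) against 13.4 to 60.5 CPM (median 31.2), log2 fold change -3.77, SE 0.27, adjusted p = 1.24e-12. FTH1 was among the 10 highest symbols of both tissues and was higher in liver, at 4587 to 21272 CPM (median 9401) against 1595 to 4066 CPM (median 2617), without overlap (log2 fold change -1.94, SE 0.28, adjusted p = 6.31e-07). Of the 8191 IDs detected in both tissues, 2364 (841 with a symbol) were not called and differed by less than 1.5-fold, and they held 20.9% of pooled testis and 10.6% of pooled liver counts. CLU, EEF1A1, RPS20, ACTB, RPL7, TMSB10, RPS12, RPS3A, RACK1 and SERF2 were the most abundant of these, although a p that misses the threshold does not show equal levels.

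Isoenzymes were compared where both forms of a pair had an ID, which held for 6 of 26 pairs. PGK2, the phosphoglycerate kinase of sperm, ranged over 137 to 400.2 CPM (median 310.1) in testis and 0 to 0.745 CPM (median 0) in liver (log2 fold change 11.44, SE 0.49, adjusted p = 2.06e-17). Without liver low 1, which held 7 of its 8 liver counts, its log2 fold change was 13.58. PGK1, the X-linked form of other cells, ranged over 33.5 to 115 CPM (median 85.7) and 42.9 to 381 CPM (median 85.4), log2 fold change -0.80, SE 0.32, adjusted p = 0.0268, with overlap, and it was not called without testis high 1, liver low 5, liver high 2 or liver high 3, at -0.69, -0.66, -0.70 and -0.49. With library totals its sign turned to 0.28. GYS2, the glycogen synthase of liver, ranged over 50.9 to 200.3 CPM (median 79.99) in liver and 0 to 0.106 CPM (median 0) in testis (log2 fold change -10.99, SE 0.44, adjusted p = 6.07e-18), while GYS1 of muscle and other tissues overlapped at 1.795 to 3.67 CPM (median 2.403) and 1.65 to 3.199 CPM (median 2.25), log2 fold change -0.07, SE 0.19, adjusted p = 0.765. With library totals the sign of GYS1 turned to 0.93. FBP1, a fructose bisphosphatase of gluconeogenesis, ranged over 898 to 4511 CPM (median 2568) in liver and 0.973 to 8.04 CPM (median 2.24) in testis (log2 fold change -9.47, SE 0.48, adjusted p = 9.42e-16), and FBP2, the muscle form, over 0 to 2.26 CPM (median 0.685) and 2.67 to 42.4 CPM (median 9.21), log2 fold change 3.96, SE 0.55, adjusted p = 3.80e-07, so FBP1 was higher in every liver and FBP2 in every testis library. ARG2, the mitochondrial arginase, was called higher in testis at 19.3 to 177 CPM (median 25.4) against 7.55 to 44.9 CPM (median 26.6) with overlap (log2 fold change 1.06, SE 0.38, adjusted p = 0.0132), whereas ARG1 was at -12.69. ARG2 was not called under upper quartile scaling, at 0.68 (adjusted p = 0.0964), or with the replicate number as a block, at 0.85 (adjusted p = 0.0603). In the interaction fit its log2 fold change was 0.35 within the low and 1.75 within the high androstenone libraries. SERPINA5, a protease inhibitor, was higher in liver like SERPINA1 but by less, with a log2 fold change of -2.33 against -10.81.

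Libraries of one tissue resembled each other more in testis than in liver. Over 4415 IDs with a mean of at least 10 CPM in both tissues, the median SD of log2 levels was 0.289 in testis and 0.481 in liver, and the SD was larger in liver for 3681 of them (83.4%). Correlations of log2 levels across these IDs, which are not independent, were 0.865 to 0.982 between testis libraries, 0.736 to 0.959 between liver libraries and 0.354 to 0.567 between tissues. The most variable testis symbols with a mean of at least 10 CPM were AKR1C1, LOC733635, CYP4B1, CYP1A2 and VIPR1. AKR1C1, an aldo-keto reductase that acts on steroids, was at 100.1 to 173 CPM in testis low 3, high 4 and high 5 and at 0.0865 to 0.696 CPM in the other 7 testes, and LOC733635 was at 58.9 to 70.1 CPM in the same 3 and at 0 to 0.292 CPM in the other 7. In liver AKR1C1 ranged over 173 to 956 CPM (median 378), log2 fold change -3.36, SE 1.05, adjusted p = 0.00508, and without testis low 3 its log2 fold change was -5.31. LOC733635 ranged over 5.83 to 31.99 CPM (median 13.2), log2 fold change 0.26, SE 0.94, adjusted p = 0.808. Reads of near-identical family members may be split between their IDs, so both are uncertain. The sign of LOC733635 turned to -1.61 without testis low 3, to -0.13 without testis high 4 and to -0.027 without testis high 5, and with the replicate number as a block it was called higher in liver, at -3.34 (adjusted p = 0.00651). CYP4B1, a cytochrome P450, ranged over 1.26 to 69.4 CPM (median 13.97) in testis and 0 to 0.435 CPM (median 0.219) in liver (log2 fold change 6.63, SE 0.70, adjusted p = 2.58e-09), and CYP1A2 over 0.195 to 97.04 CPM (median 32.6) and 58.3 to 1595 CPM (median 338), log2 fold change -3.54, SE 0.62, adjusted p = 1.07e-05. Without liver high 3 the log2 fold change of CYP1A2 was -2.87. VIPR1, a receptor for vasoactive intestinal peptide, lay at 65.3 to 128 CPM in 4 testes (low 3, low 4, high 1 and high 2, the 4 with the largest library totals) and at 4.05 to 6.53 CPM in the other 6, and at 11.2 to 367 CPM (median 76.6) in liver. It missed the threshold (log2 fold change -1.58, SE 0.73, adjusted p = 0.0517) and passed it when any 1 of 9 libraries was left out, at -1.69 without liver low 3 up to -2.09 without testis high 1, and under upper quartile scaling, at -1.87.

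The most variable liver symbols were HAMP, CYP2A19, LOC100516628, CYP7A1 and ACRV1. CYP2A19, a cytochrome P450 of skatole breakdown, ranged over 0.147 to 76.3 CPM (median 12.2) in liver and 0 to 0.1297 CPM (median 0) in testis (log2 fold change -8.81, SE 1.09, adjusted p = 4.46e-08). Its log2 fold change was -9.43 without testis high 2 and -8.15 without liver high 1. HAMP was highest in liver high 4, at 119.6 CPM, and at 0 in liver low 1, low 3 and low 4, and CYP7A1 was highest in liver low 2, at 102 CPM. The difference between testis and liver was tested for dependence on the androstenone group as an interaction in edgeR: 0 of 19065 passed an adjusted p of 0.05, the smallest adjusted p was 0.801, and 890 had an unadjusted p under 0.05. DESeq2 called 1 ID and had 955 at an unadjusted p under 0.05. That ID, XM_003130765.1, carries no symbol and was named after its values were seen. Its means were 13.5 CPM in testis low, 19.99 CPM in testis high, 20.7 CPM in liver low and 9.30 CPM in liver high, with an interaction of 1.74 on the log2 scale and an adjusted p = 0.0124 in DESeq2, against 1.73 and an adjusted p = 0.801 in edgeR. The 5 symbols with the smallest adjusted p in edgeR were LGI3, DGAT2, MOK, GLDN and TRPA1, each at 0.961.

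**Figure D5:**
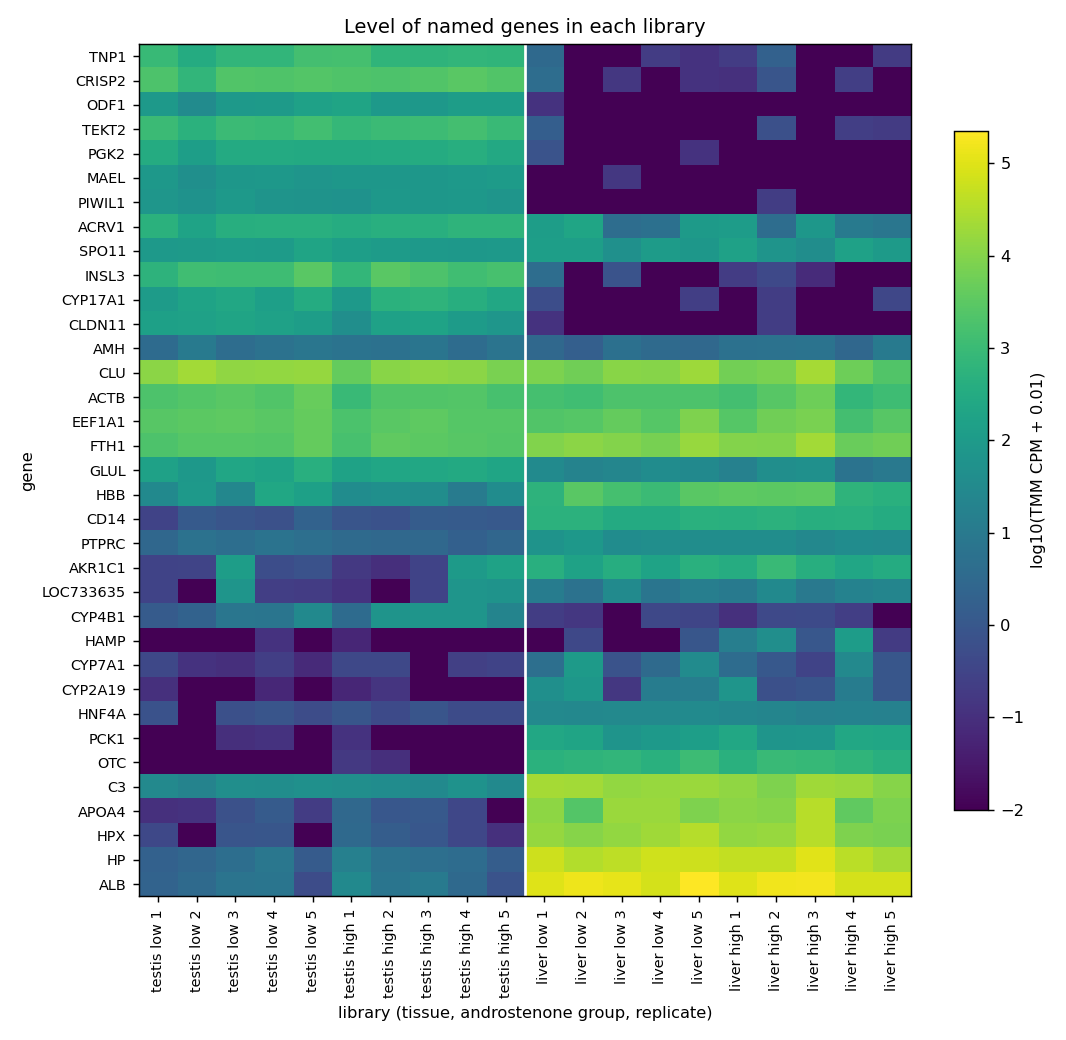
Level of named genes (rows) in each of the 20 libraries (columns, testis left of the white line and liver right), as log10 of TMM-scaled CPM plus 0.01. Sperm genes fill the left and plasma proteins the right, CLU and ACTB are of like color on both sides, and AKR1C1 and LOC733635 are bright in testis low 3, high 4 and high 5 alone among testes.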

How the data were processed

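RNA from testis and liver was reverse transcribed and amplified (SMART cDNA kit). The paper states single reads with 1 lane for each sample of 1 Illumina HiSeq flow-cell, and calls this a first sequencing run. Whether further runs or flow-cells were used is not stated. The authors called reads in CASAVA 1.7 and mapped them by BWA, against a reference of mRNAs from RefSeq and candidate transcripts from UniGene for the Sscrofa 9.2 assembly. SAMtools is also named in the submitters' processing notes. The authors deposited, for each sample, raw counts of reads per reference ID, not normalized. How reads that fit several references, or either strand, were counted is not given in the sources used here. No genome coordinates or sequences were used.

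Each file held 21785 lines for 21755 IDs, as 10 IDs occurred 4 times each, with equal counts, and repeats were dropped. Symbols came from a table of RefSeq genes and the study's tables and named 6692 IDs. IDs with at least 10 counts over the 20 samples were kept. edgeR 4.0.16 in R 4.3.3 fitted tissue with the androstenone group as covariate (TMM, quasi-likelihood test, Benjamini-Hochberg adjustment), and the SE was taken as log2 fold change over the root of the F statistic. TMM factors were 1.27 to 1.45 in testis and 0.515 to 0.876 in liver. The fit treated the 20 samples as independent. A gene with no count in a tissue was given a bound against 3 counts over its 10 libraries, and intervals and bounds cover counting error only. Complexity was compared by permutation tests in SciPy 1.17.1. DESeq2 1.42.0, other scalings, filters and thresholds, a replicate block and leaving out each sample were alternatives. The fits were tested on simulated data.

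The comparison, the 22 gene lists and the tests were chosen with earlier results of these data known. Named were members of the lists and the isoenzyme pairs, the 10 most abundant symbols of each tissue, the 10 largest fold changes in each direction among called IDs without overlap and with at least 10 CPM, the 10 most abundant symbols not called, the 5 most variable symbols of each tissue and the 5 smallest interaction p-values. List symbols without an ID here were not analysed here. Some list and pair members enter the counts and medians but are not reported here by name.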

Additional observations from a re-analysis of the deposited data

Results flagged for a closer look

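Within each tissue the highest or lowest of the 10 libraries was set against the rest by Dixon's criterion (0.466 for 10 samples). Chance passes it in about 5% of groups if values are normally distributed and independent. The CPM were not log-transformed and genes share libraries, so that rate is no expectation for the numbers that passed. Of 23 summed measures 4 passed, and of 97 genes tested in the tissue where they were higher 17 passed.

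Sperm genes set testis low 2 apart. The sum of the 26 sperm genes was 5114 CPM there, and CRISP2 was at 692 CPM, ZPBP2 at 265.0 CPM, CAPZA3 at 364 CPM, PGK2 at 137 CPM and SMCP at 88.7 CPM, each the lowest testis value, while DMRT1 of spermatogonia and Sertoli cells was highest there, at 68.1 CPM. Every one of these genes was called higher in testis with and without that library.

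Counts of the other tissue set 2 libraries apart. Liver low 1 held 32.4 CPM of 25 sperm genes, with a count in 24 of the 25 against 6 to 15 in the other livers, and testis high 1 held 68.0 CPM of 8 abundant liver genes. The red blood cell list was highest of testis in testis low 4, at 425 CPM.

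In testis low 5, SPO11 was at 193 CPM, ACTA2 at 529 CPM and ACTB at 4534 CPM, each the highest of testis. In liver high 3, HP was at 102375 CPM and APOA4 at 36910.4 CPM. In liver high 4, IGF1 was at 41.5 CPM and HAMP at 119.6 CPM. In liver low 2, HSD3B1 was at 23.7 CPM and CYP7A1 at 102 CPM. FETUB reached 1858 CPM in liver low 5 and AKR1C1 reached 956 CPM in liver high 2.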

How the results depend on the processing

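Leaving out single libraries gave 14317 to 14469 called IDs, 8205 to 8335 higher in testis and 6061 to 6207 higher in liver, and 0 to 0 interactions. The IDs higher in liver fell to 3583 with library totals only and to 4025 under the stricter threshold of 1.5 on the log2 scale, at which 10299 IDs were called in all. DESeq2 called 14242 IDs and 1 interaction. Testis-restricted IDs numbered 506 and liver-restricted IDs 44 at a detection limit of 5 CPM, with 4293 shared, and 284 and 15 with no count at all allowed in the other tissue, while single libraries left out gave 887 to 1059, 79 to 97 and 8193 to 8385. The 5 complexity measures kept their direction and their side of the threshold in every alternative run.

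Of 1337 values of 97 genes under 14 alternatives, 1295 kept direction and call, 17 lost the call, 13 gained it and 12 changed sign. Under upper quartile scaling the log2 fold change turned to -0.26 for SPO11, -0.037 for CLU, -0.11 for ACTB and -0.14 for LOC733635. With library totals it turned to 0.29 for HSD3B1, 0.72 for IGF1, 0.38 for PYGL, 0.28 for PGK1, 0.93 for GYS1, 0.62 for EEF1A1 and 0.79 for RPS20. Leaving out single libraries gave -0.018 to 0.22 for SPO11, -0.39 to 0.020 for IGF1 and -1.61 to 0.52 for LOC733635. Without liver high 3 CLU was called (0.66), and without liver high 5 AMH was called (0.59). The cause was not tested.

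The replicate numbers were not shown to pair the tissues: deviations of same-numbered samples correlated at -0.06 to 0.46 over 6348 IDs, over 0.1 in 7 of 10 pairs and highest with the own number in 4 of 10. The median correlation with other numbers of the group was lower, as in high 3 (0.46 against -0.27). Low 4 (-0.04 against 0.02) and high 4 (-0.06 against -0.03) were the exceptions. Whether the numbers mark pairs was not tested. With the replicate number as a block, 14324 IDs were called, 8356 higher in testis and 5968 higher in liver, with 0 interactions, and LOC733635 turned to -3.34 and was called (adjusted p = 0.00651), while PGK1 (-0.55) and ARG2 (0.85) were not.

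Depth limits absence: in liver high 4, the shallowest library, 3 counts were worth 0.518 CPM of the library total, before TMM scaling. An ID with fewer than 3 counts in every library of a tissue was not shown to be absent there. For genes with no count in a tissue, the bounds rest on 3 counts over its 10 libraries. On the TMM scale these were worth 0.0203 CPM in testis and 0.0363 CPM in liver.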

Other observations

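The livers fell into 5 and 5 for ACRV1 and VIPR1. ACRV1 lay at 76.9 to 211 CPM and VIPR1 at 127 to 367 CPM in liver low 1, low 2, low 5, high 1 and high 3. They lay at 4.11 to 9.87 CPM and at 11.2 to 26.0 CPM in liver low 3, low 4, high 2, high 4 and high 5. Both sets of livers hold low and high androstenone samples. In testis ACRV1 had no such gap, at 187 to 599 CPM, and VIPR1 was high in testis low 3, low 4, high 1 and high 2. Library totals split the livers in the same way, with 12862106 to 26783002 counts in the first set and 5796973 to 8593568 in the second. The testes high in VIPR1 held 12975765 to 15975386 counts, and the other testes 6161397 to 12462278. The split was seen in the values, and its relation to library totals was not tested.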
